A study of Mus musculus with 48 samples.

Results

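The 368 genes described here belong to the vomeronasal and taste receptor families of the mouse. They were all symbols of a table of 24466 genes that begin with Vmn1r, Vmn2r, Tas1r or Tas2r followed by a digit: 209 Vmn1r, 121 Vmn2r, 35 Tas2r and 3 Tas1r genes. The table holds H3K27me3, the repressive histone mark deposited by Polycomb repressive complex 2, measured by chromatin immunoprecipitation and sequencing (ChIP-seq). Each gene has 1 ratio of ChIP to input in each of 3 cell types: definitive endoderm sorted as ENDM1+ cells from e8.25 embryos, adult hepatocytes at 8 weeks, and mature beta cells at 8 weeks, sorted by an RFP reporter of insulin. Among the 48 libraries of the series, each of these cell types has 2 for H3K27me3 and 2 inputs for it. The labels give B6C3F1 mothers for the embryos, with C3H, Pdx1-eGFP or Ins-RFP fathers, and no deletion or treatment in any of these groups. The number of animals pooled is not stated there. Ratios given in threes stand in the order endoderm, hepatocytes, beta cells.

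Each ratio is the authors' pooled, quantile-normalized value, so no value below carries a replicate error, no test between cell types was possible, and read depth is unknown. Quantile normalization gives the columns 1 distribution, with a median of 0.711 and an upper quartile of 1.27. A ratio is thus a position within 1 cell type, and total H3K27me3 cannot be compared between cell types. Among the markers of the adult cell types, Cebpa and Pdx1 stood low in their own cell type. Cebpa, a regulator of hepatocyte genes, had ratios of 11.3 (endoderm), 0.13 (hepatocytes) and 3.76 (beta cells), and Pdx1, a regulator of beta cell genes, had 6.39, 7.18 and 0.22. Of the markers of endoderm, Sox17 had its lowest ratio there (1.42, 7.05 and 4.16), while Foxa1 had its highest (72.6, 1.78 and 6.35). The insulin genes Ins2 (0.38, 1.04 and 0.59) and Ins1 (0.05, 1.38 and 1.56) did not have their lowest ratio in beta cells. The beta cell markers Nkx6-1 (7.06, 6.27 and 0.33) and Mafa (317, 6.73 and 0.68) did, but that of Mafa was near the table's median. The hepatocyte markers Apoa1 (1.47, 0.25 and 1.40), Ttr (0.60, 0.12 and 0.43) and Hnf4a (0.75, 0.47 and 0.75) were lowest in hepatocytes. Alb was lowest in endoderm (0.37, 0.40 and 0.92).

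All 4 families are G protein-coupled receptors of chemosensory cells. Vomeronasal receptors detect pheromones and related signals in neurons of the vomeronasal organ. The Vmn1r genes have their coding sequence in a single exon and act with the G protein subunit Gnai2, and the Vmn2r genes are long, split into several exons, encode a large extracellular domain, and act with Gnao1. Tas2r genes, also single-exon, encode bitter receptors, and the multi-exon Tas1r genes encode the subunits of the umami receptor (Tas1r1 with Tas1r3) and of the sweet receptor (Tas1r2 with Tas1r3). Liver and pancreas are not sensory tissues, although taste receptors have been described in gut and islet cells.

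Upstream sequence gives a view of what these genes share apart from the mark. RefSeq windows of build GRCm38.p6, from 250 bases before to 50 bases after the annotated gene start, were matched for 332 of the 368 members: 184 Vmn1r, 114 Vmn2r, 31 Tas2r and 3 Tas1r genes. Polycomb is known in mammals for its preference for CpG islands, so the dinucleotide CG (which reads the same on both strands) was counted. For each family the window of the member nearest the median ratios is given, with each CG in capitals, followed by Tas1r3, whose ratios changed most among the Tas1r genes. Their coordinates on GRCm38.p6 are chr13:22806469-22806768 (minus strand) for Vmn1r209, chr6:40490988-40491287 (plus) for Tas2r137, chr7:9953536-9953835 (minus) for Vmn2r48, chr4:152038441-152038740 (minus) for Tas1r1 and chr4:155863304-155863603 (minus) for Tas1r3.
Vmn1r209: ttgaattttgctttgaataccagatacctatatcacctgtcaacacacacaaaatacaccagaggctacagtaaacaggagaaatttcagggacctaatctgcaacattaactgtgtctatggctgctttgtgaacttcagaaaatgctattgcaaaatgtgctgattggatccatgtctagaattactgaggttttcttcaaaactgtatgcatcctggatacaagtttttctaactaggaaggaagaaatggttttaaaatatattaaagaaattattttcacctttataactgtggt
Tas2r137: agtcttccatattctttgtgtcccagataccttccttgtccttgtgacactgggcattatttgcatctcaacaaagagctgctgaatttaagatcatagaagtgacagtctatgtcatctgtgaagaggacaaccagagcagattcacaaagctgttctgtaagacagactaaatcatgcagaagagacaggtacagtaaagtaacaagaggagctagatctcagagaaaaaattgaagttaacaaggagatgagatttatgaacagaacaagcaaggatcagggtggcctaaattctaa
Vmn2r48: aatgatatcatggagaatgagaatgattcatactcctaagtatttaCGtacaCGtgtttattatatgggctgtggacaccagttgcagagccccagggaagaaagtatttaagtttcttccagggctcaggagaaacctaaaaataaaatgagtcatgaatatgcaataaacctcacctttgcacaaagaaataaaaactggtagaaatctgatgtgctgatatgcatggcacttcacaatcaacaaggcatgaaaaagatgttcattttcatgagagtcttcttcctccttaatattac
Tas1r1: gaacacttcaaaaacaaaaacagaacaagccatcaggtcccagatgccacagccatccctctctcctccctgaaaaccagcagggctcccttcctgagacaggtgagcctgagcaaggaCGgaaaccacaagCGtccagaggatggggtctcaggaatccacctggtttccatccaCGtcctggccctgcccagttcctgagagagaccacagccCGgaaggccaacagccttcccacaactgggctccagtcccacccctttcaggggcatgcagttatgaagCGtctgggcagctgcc
Tas1r3: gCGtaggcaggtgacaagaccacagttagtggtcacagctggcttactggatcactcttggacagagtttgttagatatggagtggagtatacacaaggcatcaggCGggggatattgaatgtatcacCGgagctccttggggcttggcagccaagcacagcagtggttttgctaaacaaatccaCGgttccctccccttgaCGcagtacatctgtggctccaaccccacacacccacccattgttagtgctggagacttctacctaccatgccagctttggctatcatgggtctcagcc
The Vmn1r209 and Tas2r137 windows hold 0 CG, that of Vmn2r48 holds 2, and those of Tas1r1 and Tas1r3 hold 5 each.

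Receptor windows were poor in CG in general. The median was 1 CG in Vmn1r, Vmn2r and Tas2r windows and 5 in the 3 Tas1r windows, against 13 over the 17410 genes of the table with a window. At least 1 CG was present in 140 of 184 Vmn1r, 82 of 114 Vmn2r and 23 of 31 Tas2r windows (76.1%, 71.9% and 74.2%), against 95.2% of all genes. An observed-to-expected CG ratio of 0.6 or more, a usual mark of CpG islands, was reached by 1 of the 332 receptor windows and by 48.4% of all windows. That window belongs to Vmn2r29, a gene picked here after its values were seen, with 23 CG and H3K27me3 ratios of 1.15 (endoderm), 0.78 (hepatocytes) and 0.82 (beta cells). The other multi-exon receptors of the same class C had a median of 11 CG over 13 windows, but their windows also differ in position, as described next.

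The annotated gene start of most receptors was a start codon. In 159 of 184 Vmn1r, 29 of 31 Tas2r and 99 of 114 Vmn2r windows, the annotated first base of the gene was the A of an ATG, against 7.56% of all genes. It was so in 0 of 3 Tas1r and 0 of 13 other class C windows. For genes with an ATG there, the last 50 bases of the window are coding, the 250 before them lie upstream of the coding start, and the transcription start may lie elsewhere. The CG counts above thus set windows at a coding start beside windows that mostly are not. A difference in CG cannot be told apart from this difference in position. The number of CG in the window was also set against the ratio. Spearman's rho across Vmn1r genes was 0.18 (endoderm), 0.03 (hepatocytes) and 0.06 (beta cells). It was 0.06, 0.21 and 0.19 across Vmn2r genes and -0.14, 0.18 and -0.02 across Tas2r genes. Across all genes of the table it was -0.13, -0.35 and -0.33. Genes are not independent replicates, and these coefficients are descriptions.

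In definitive endoderm, single-exon receptors stood low. The median ratio was 0.44 for Vmn1r and 0.25 for Tas2r genes, against 1.01 for Vmn2r genes and 0.711 for all genes. The lowest 10% of all genes held 66 of 209 Vmn1r genes (31.6%) and 22 of 35 Tas2r genes (62.9%), but 1 of 121 Vmn2r genes (0.83%). This low standing was not particular to the members. Olfactory receptors had an endoderm median of 0.47, with 390 of 1125 genes (34.7%) in the lowest 10%. Trace amine-associated and formyl peptide receptors had a median of 0.44, with 7 of 18 genes (38.9%) there. The 3 Tas1r genes had ratios of 0.98 (Tas1r1), 1.58 (Tas1r2) and 1.37 (Tas1r3). On the scale of log2(ratio + 0.0711), the single-exon median was below the multi-exon median by a difference of -1.20.

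**Figure D1:**
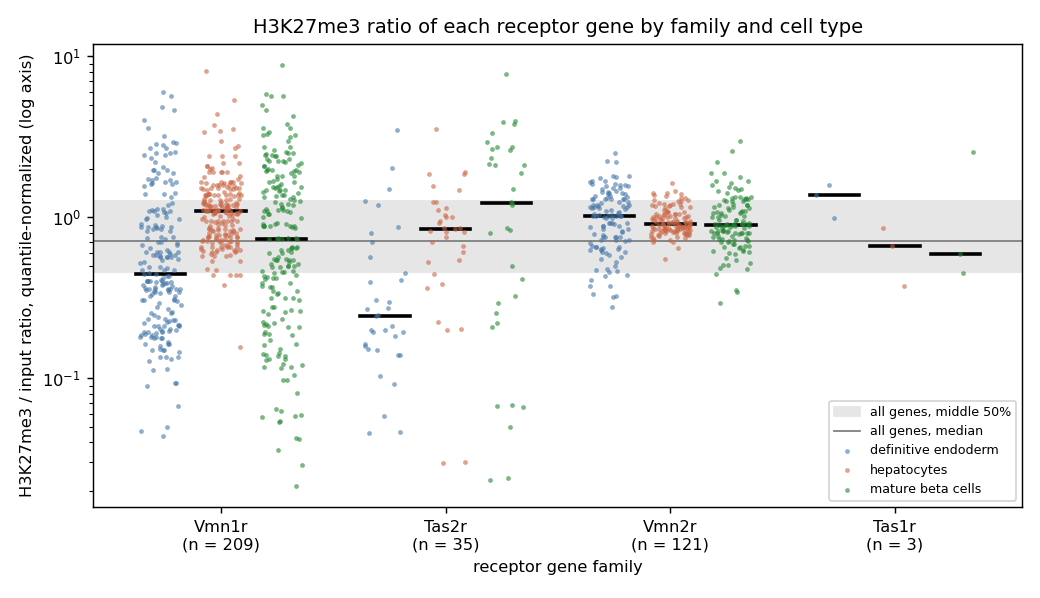
H3K27me3 ratio to input (log axis) of each Vmn1r, Tas2r, Vmn2r and Tas1r gene in the 3 cell types; points are genes, black bars family medians, and the grey band and line the middle 50% and median of all genes. The endoderm medians of Vmn1r (0.44) and Tas2r (0.25) lie below the grey line, the Vmn2r median (1.01) above it.

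In hepatocytes the families stood closer together. The median ratio was 1.10 for Vmn1r, 0.85 for Tas2r and 0.90 for Vmn2r genes, and 0.67 for the Tas1r genes. The lowest 10% of all genes held 1 of 209 Vmn1r genes (0.48%) and 5 of 35 Tas2r genes (14.3%), and 72 Vmn1r genes (34.4%) were in the top 25%. The single-exon median was above the multi-exon median by 0.22 on the log2 scale. In beta cells the medians were 0.74 for Vmn1r, 1.22 for Tas2r, 0.90 for Vmn2r and 0.59 for Tas1r genes. Tas2r genes were at both ends of this column, with 10 of 35 in the lowest 10% and 16 of 35 (45.7%) in the top 25%. Vmn1r genes were likewise at both ends, with 53 of 209 in the lowest 10% (25.4%) and 71 in the top 25% (34.0%).

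Single-exon receptors had less than their even share of the most marked genes in endoderm and hepatocytes, and more than it in beta cells. The top 5% of all genes held 6 Vmn1r genes for endoderm, 7 for hepatocytes and 14 for beta cells (2.87%, 3.35% and 6.70%), and 1, 1 and 5 of the 35 Tas2r genes (2.86%, 2.86% and 14.3%). It held 0 of 121 Vmn2r and 0 of 3 Tas1r genes in each of the 3 cell types. The highest ratios were 8.81 for Vmn1r231 and 7.74 for Tas2r106, both in beta cells, and 8.10 for Vmn1r188 in hepatocytes. The highest Vmn2r ratio was 2.96, for Vmn2r9 in beta cells.

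The spread among genes separated the single-exon from the multi-exon families in every cell type. The interquartile range of log2(ratio + 0.0711) was 1.82 (endoderm), 0.83 (hepatocytes) and 2.16 (beta cells) for Vmn1r genes, and 1.34, 0.98 and 2.98 for Tas2r genes. For Vmn2r genes it was 0.86, 0.31 and 0.66, below the 1.34 of all genes in each column. In hepatocytes the ranges of Vmn1r, Tas2r and olfactory receptor genes were below 1.34 too. The Tas2r range in endoderm was close to that of all genes. The ratios of Vmn2r genes ran from 0.55 to 1.62 in hepatocytes, a 2.93-fold range, where those of Vmn1r genes ran from 0.16 to 8.10, a 51.7-fold range. Olfactory receptors, which also have a single coding exon, had interquartile ranges of 2.29, 0.89 and 2.06 over 1125 genes. Other class C receptors, which are multi-exon, had 0.72, 0.62 and 0.73 over 19 genes. The reads behind each ratio are unknown.

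**Figure D2:**
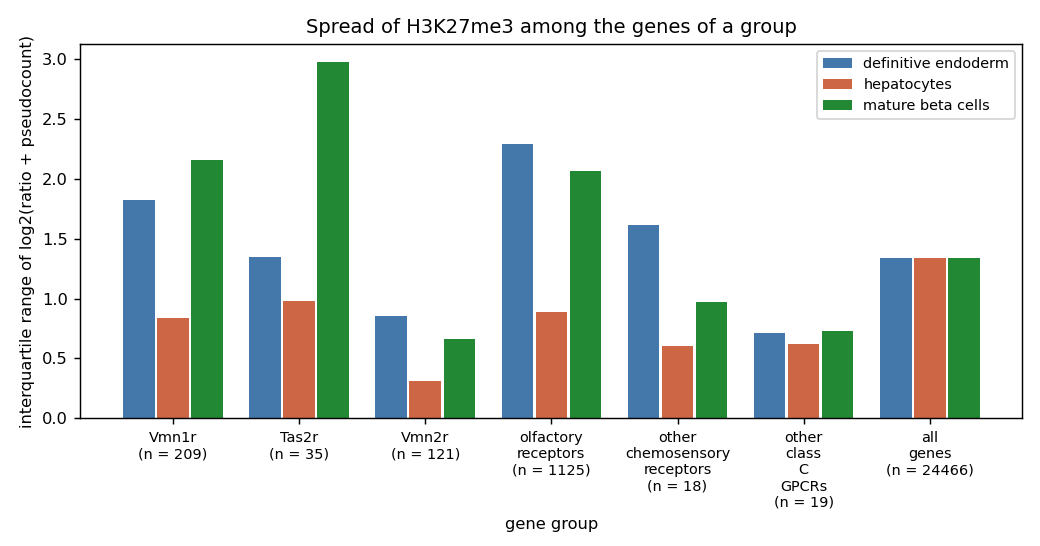
Interquartile range of log2(ratio + 0.0711) among the genes of each group (bars, starting at 0) in the 3 cell types. Vmn1r (1.82, 0.83 and 2.16), Tas2r and olfactory receptor genes have wider ranges than Vmn2r genes (0.86, 0.31 and 0.66) in each cell type.

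The order of genes within a family was compared between cell types, and only the Tas2r genes, for the adult pair, came near the coefficient of all genes. Across 209 Vmn1r genes Spearman's rho of hepatocyte with endoderm ratios was 0.20, that of beta cell with endoderm ratios was 0.002, and that of the adult pair was 0.12. Across 121 Vmn2r genes the coefficients were -0.003, -0.20 and 0.31, and across 35 Tas2r genes -0.03, 0.25 and 0.43. All 24466 genes gave 0.47, 0.36 and 0.49. These are descriptions across genes of 3 pooled profiles.

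The first comparison set hepatocytes against endoderm. Genes were called higher or lower where log2(ratio + 0.0711) differed by at least 1, which is 2-fold on that scale. Of 244 single-exon receptors, 142 were higher in hepatocytes (58.2%) and 23 lower (9.43%), against 12.8% and 13.3% of all genes. With a pseudocount 10 times larger 50 were higher and 13 lower, and of the 129 whose mean level was above the median of all genes 63 were higher and 19 lower. No shares of all genes are given at these settings, so these counts cannot be set against a background. Of 124 multi-exon receptors, 11 were higher (8.87%) and 4 lower (3.23%), both shares below those of all genes. The median log2 difference was 1.16 for Vmn1r, 1.17 for Tas2r, -0.10 for Vmn2r and -0.82 for Tas1r genes, and -0.03 for all genes.

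Vmn1r188 had ratios of 0.37 (endoderm), 8.10 (hepatocytes) and 5.78 (beta cells), and its log2 difference of 4.22 between hepatocytes and endoderm was the largest of the family. Vmn1r199 had 0.13, 2.96 and 3.58 (3.92), and Vmn1r207-ps, a pseudogene by its symbol, had 0.04, 1.57 and 0.57 (3.84). These 3 genes were low in endoderm and above the table's upper quartile in hepatocytes. In the opposite direction, Vmn1r103 had 2.43 (endoderm), 0.16 (hepatocytes) and 0.19 (beta cells) (-3.46), Vmn1r2 had 4.81, 0.66 and 1.19 (-2.75), and Vmn1r172 had 3.57, 0.62 and 2.1 (-2.40). All 3 had endoderm ratios above the upper quartile of the table. The genes named here were picked by this difference, so such low or high ratios follow in part from the choice.

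Among Vmn2r genes the widest differences were smaller. Vmn2r10 had ratios of 0.32 (endoderm), 1.41 (hepatocytes) and 1.50 (beta cells), a log2 difference of 1.92 for hepatocytes. Vmn2r65 had 0.37, 1.27 and 1.30 (1.59), and Vmn2r14 had 0.55, 1.62 and 1.22 (1.44). At the lower end Vmn2r74 had 2.23, 0.64 and 1.26 (-1.69), Vmn2r45 had 2.50, 1.01 and 0.90 (-1.26), and Vmn2r70 had 1.60, 0.75 and 0.77 (-1.03). The first 3 had endoderm ratios below the median of the table, and the last 3 above its upper quartile. That follows in part from picking genes by their difference from endoderm.

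In the second comparison, beta cells were set against endoderm. Of 244 single-exon receptors, 99 were higher in beta cells (40.6%) and 52 lower (21.3%), against 14.1% and 15.1% of all genes, so both shares exceeded the background. Higher were 19 of 35 Tas2r and 80 of 209 Vmn1r genes, and lower were 4 and 48. Of 124 multi-exon receptors, 15 were higher (12.1%) and 20 lower (16.1%), near the shares of all genes. The median log2 difference was 0.49 for Vmn1r, 1.29 for Tas2r, -0.03 for Vmn2r and -0.67 for Tas1r genes.

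Vmn1r231 had ratios of 0.23 (endoderm), 1.98 (hepatocytes) and 8.81 (beta cells), and a log2 difference of 4.89 between beta cells and endoderm. Vmn1r54 had 0.07, 1.10 and 3.13 (4.53), and Vmn1r216 had 0.19, 1.51 and 5.68 (4.43). In all 3 the hepatocyte ratio lay between the other two. Vmn1r227 went the other way with 5.98, 1.28 and 0.06 (-5.55), as did Vmn1r66 with 5.68, 1.23 and 0.12 (-4.90) and Vmn1r23 with 4.66, 1.51 and 0.22 (-4.01). Vmn1r227 and Vmn1r66 had the highest endoderm ratios of their family. Picking genes by this difference favours such ratios. Of the Vmn2r genes, Vmn2r75 (0.28, 0.82 and 1.31) and Vmn2r123 (0.66, 0.96 and 2.57) were among the most increased in beta cells, and Vmn2r106 (2.21, 1.15 and 0.29) was the most decreased.

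The comparisons with hepatocytes and with beta cells use 1 endoderm column, so genes called in both are not independent evidence. Higher in both adult cell types were 81 of 244 single-exon genes (33.2%), 7 of 124 multi-exon genes (5.65%) and 1717 of all 24466 genes (7.02%). Lower in both were 14 single-exon genes (5.738%), 2 multi-exon genes (1.613%) and 1469 of all genes (6.004%), so the single-exon share was near that of all genes. Endoderm gave the lowest of the 3 ratios at 135 single-exon genes (55.3%), 49 multi-exon genes (39.5%) and 33.7% of all genes. It gave the highest at 44 single-exon genes (18.0%), 55 multi-exon genes (44.4%) and 35.6% of all genes. For multi-exon genes, as for all genes, endoderm was thus more often the highest than the lowest, with the columns aligned as deposited.

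**Figure D3:**
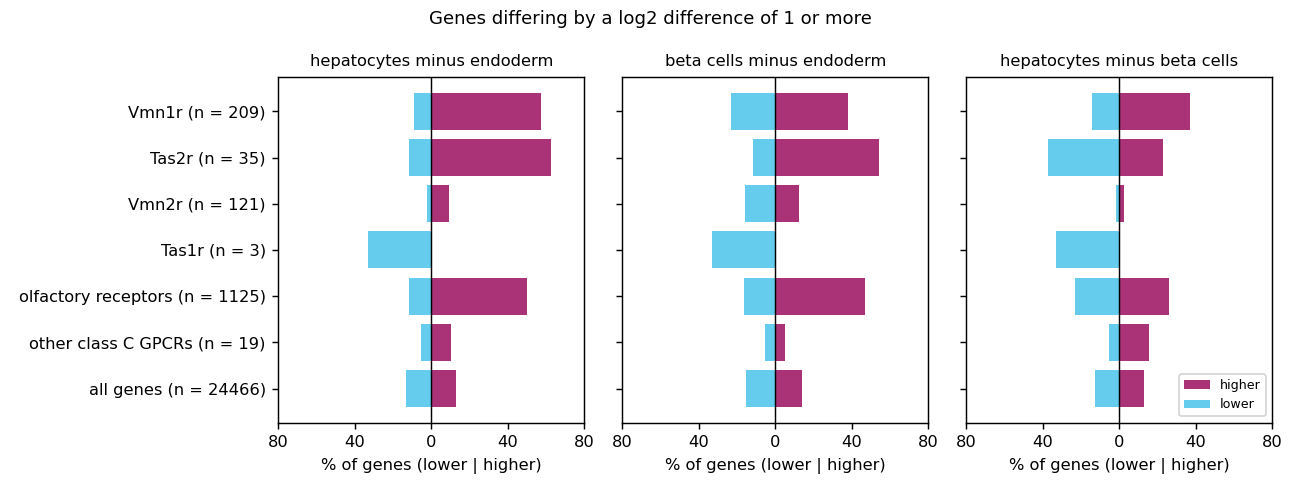
Share of genes higher (right of 0) or lower (left of 0) by a log2 difference of 1 or more in the 3 comparisons, for each receptor family, olfactory receptors, other class C receptors and all genes. Vmn1r and Tas2r bars reach 57.4% and 62.9% to the right for hepatocytes minus endoderm, where all genes reach 12.8%; the Tas1r bars stand for 3 genes.

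The counts depend on how the columns are aligned. With each column divided by its own most frequent value, which is 1.27 (endoderm), 0.92 (hepatocytes) and 0.93 (beta cells), the median difference of all genes moves from -0.03 to 0.39 for hepatocytes and from -0.01 to 0.39 for beta cells. The Vmn2r median then turns from -0.10 to 0.34 and from -0.03 to 0.38, but relative to the median of all genes it is -0.05 and -0.01. Relative to the same median the Vmn1r difference is 1.19 for hepatocytes with either alignment. Of the multi-exon genes past the threshold, the share that was higher moves from 73.3% to 91.3% for hepatocytes and from 42.9% to 86.5% for beta cells. For all genes it moves from 48.9% to 73.3% and from 48.3% to 70.9%, since 22.1% of all genes are then higher and 8.03% lower in hepatocytes, and 24.0% higher and 9.85% lower in beta cells.

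In the third comparison, of hepatocytes with beta cells, the family medians of the bitter receptors and of the Vmn1r genes lay on opposite sides. Of 209 Vmn1r genes, 77 were higher in hepatocytes (36.8%) and 30 lower (14.4%), against 13.1% and 12.5% of all genes, with a median log2 difference of 0.60. Of 35 Tas2r genes, 8 were higher in hepatocytes and 13 lower, with a median of -0.55. This side was not shared by the whole family. The 24 neighbouring genes from Tas2r130 to Tas2r140 had a median of 0.005, with 6 higher and 8 lower. Of 121 Vmn2r genes, 3 were higher and 2 lower, with a median of -0.01. Over all 244 single-exon genes 85 were higher and 43 lower, against 33 and 30 with a pseudocount 10 times larger. Of the 129 with a mean level above the median of all genes, 21 were higher and 34 lower, and the Vmn1r median was -0.16. A mean over 3 columns keeps a low gene that is high in 1 of them. The larger pseudocount and the filter have no share of all genes beside them here either.

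Vmn1r226 had ratios of 0.69 (endoderm), 4.39 (hepatocytes) and 0.06 (beta cells), a log2 difference of 5.06. Vmn1r72 had 1.12, 3.39 and 0.06 (4.75), and Vmn1r33 had 1.96, 3.55 and 0.14 (4.12). On the other side, Vmn1r210 had 0.14, 0.62 and 4.27 (-2.64), Vmn1r238 had 0.58, 0.78 and 4.97 (-2.56), and Vmn1r80 had 0.17, 0.61 and 3.57 (-2.41). The 3 genes higher in hepatocytes had beta cell ratios of at most 0.14, while the 3 higher in beta cells had hepatocyte ratios close to the median of the table. Here too the genes were picked by the difference itself. The Vmn2r genes furthest apart were Vmn2r106, named above (1.75), and Vmn2r89 with 1.17, 0.80 and 2.21 (-1.39).

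Taste receptors are few enough to give singly. Tas1r3, the subunit common to the sweet and umami receptors, had ratios of 1.37 (endoderm), 0.37 (hepatocytes) and 0.45 (beta cells). It was lower in both adult cell types than in endoderm, with log2 differences of -1.70 and -1.47. Tas1r1, the umami subunit, had 0.98, 0.67 and 0.59 and stayed under the threshold in all 3 comparisons. Tas1r2, the sweet subunit, had 1.58, 0.86 and 2.56, and was lower in hepatocytes than in beta cells (-1.50). Both subunits of the sweet receptor thus had their lowest ratio in hepatocytes, but for Tas1r3 the difference from beta cells (-0.23) was under the threshold. Tas1r2 had its highest ratio in beta cells.

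Among the bitter receptors, Tas2r106 had ratios of 0.25, 3.55 and 7.74, the highest of the family in both adult cell types. Tas2r130 had 0.14, 1.92 and 2.33, Tas2r105, a receptor for cycloheximide, had 0.20, 1.57 and 2.94, and Tas2r110 had 0.15, 0.86 and 3.81. In these 4 genes the ratio was lowest in endoderm and highest in beta cells. Tas2r103 was opposite, with 3.46, 0.03 and 0.02, and log2 differences from endoderm of -5.13 and -5.23. Tas2r122 had its highest ratio in hepatocytes (0.21, 1.85 and 0.05), and so had Tas2r102 (0.09, 0.70 and 0.07). Tas2r108 had 0.06, 0.37 and 0.02, and Tas2r129 had 0.16, 0.03 and 0.33, so both stood below the table's median in all 3 cell types.

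Other bitter receptors had a beta cell ratio well above the rest. Tas2r144 had 0.27, 0.95 and 3.93, Tas2r104 had 0.16, 0.44 and 3.36, Tas2r114 had 0.20, 0.75 and 2.61, and Tas2r125 had 0.39, 0.86 and 2.65. Tas2r138 had 0.70, 0.80 and 2.74, and Tas2r139 had 0.45, 1.03 and 2.74. Tas2r120 had 1.27, 0.92 and 3.92, but its endoderm and hepatocyte ratios are the most frequent values of those columns, which recur at 346 and 357 genes. Tas2r120 was the single member with such a value. In all, 20 of 35 Tas2r genes had their highest ratio in beta cells, 12 in hepatocytes and 3 in endoderm.

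**Figure D4:**
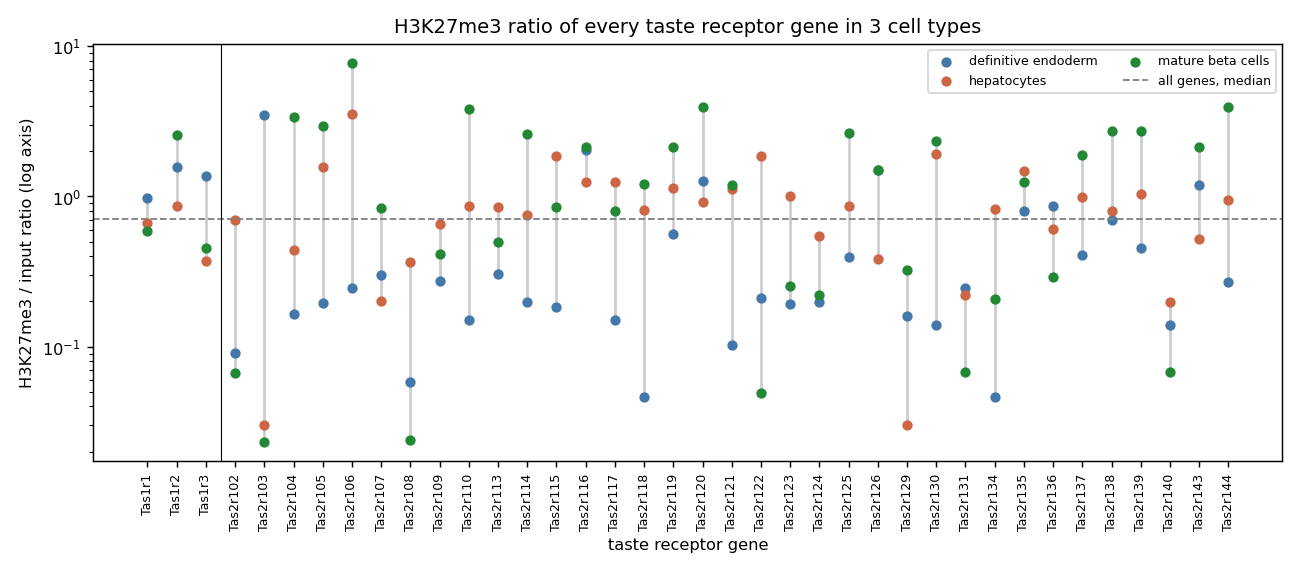
H3K27me3 ratio to input (log axis) of the 3 Tas1r and 35 Tas2r genes in endoderm, hepatocytes and beta cells; each column of points is 1 gene and the dashed line is the median of all genes (0.711). Endoderm points lie lowest at 22 of the 35 Tas2r genes, and Tas2r103 is the gene with the widest fall from endoderm.

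Vomeronasal and taste receptor genes lie in clusters, so members were grouped into runs of neighbours by their order in RefSeq. At most 10 protein-coding genes from outside these families could lie between members of a run. Runs of 5 or more members numbered 9 for Vmn1r (200 genes), 8 for Vmn2r (102 genes) and 2 for Tas2r (29 genes). The median difference between hepatocytes and endoderm was above 0 in 9 of 9 Vmn1r runs, from 0.48 to 1.99, and in 2 of 2 Tas2r runs (0.83 and 1.24). For beta cells it was above 0 in 8 of 9 Vmn1r runs, from -0.11 to 1.93. Of the 8 Vmn2r runs, 3 had a median above 0 for hepatocytes and 3 for beta cells, with ranges of -0.48 to 0.61 and -0.65 to 0.65. Between hepatocytes and beta cells the median was above 0 in 9 of 9 Vmn1r runs, from 0.23 to 0.63. It was above 0 in 1 of 2 Tas2r runs (-1.79 and 0.005) and in 4 of 8 Vmn2r runs.

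The Vmn1r run with the highest median for hepatocytes was that of Vmn1r85 to Vmn1r89, with 5 members and median ratios of 0.19 (endoderm), 0.95 (hepatocytes) and 0.39 (beta cells). The run of Vmn1r188 to Vmn1r223, with 35 members, had 0.40, 1.27 and 1.09, and held 25 genes higher in hepatocytes than in endoderm and 2 lower. The run of Vmn1r4 to Vmn1r31, with 28 members, had 0.23, 0.84 and 0.49, and 16 of its genes were in the lowest 10% of the endoderm column. The longest run, Vmn1r91 to Vmn1r183 with 65 members, had a higher endoderm median (0.61, 1.12 and 0.66), and 4 of its genes were in that range. Among Vmn2r runs, Vmn2r29 to Vmn2r56 (28 members) had 1.21, 0.89 and 0.80 with 10 genes lower in beta cells than in endoderm, while Vmn2r65 to Vmn2r76 (12 members) had 0.50, 0.84 and 0.84. The bitter receptor run of Tas2r130 to Tas2r140 (24 members) held 18 genes of the lowest 10% in endoderm, and that of Tas2r139 to Tas2r126 (5 members) held 1.

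**Figure D5:**
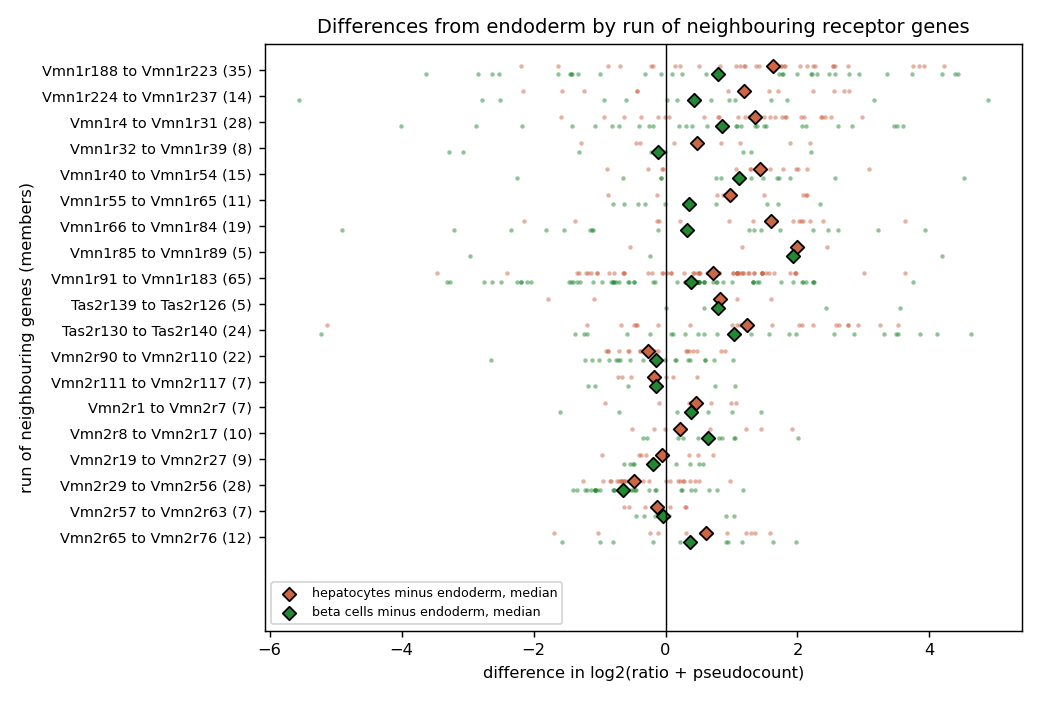
Difference in log2(ratio + 0.0711) of hepatocytes (orange) and beta cells (green) from endoderm for each run of 5 or more neighbouring receptor genes; small points are genes, diamonds run medians, and numbers in brackets are members. Hepatocyte diamonds of all 9 Vmn1r and 2 Tas2r runs lie right of 0, and those of Vmn2r runs lie between -0.48 and 0.61.

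Consecutive members of a run were compared with all pairs of their family. They are called adjacent or neighbours here, although other genes may lie between them. The median absolute log2 difference between adjacent Vmn1r genes was 1.22 (endoderm), 0.56 (hepatocytes) and 1.43 (beta cells) over 194 pairs, against 1.18, 0.60 and 1.48 over all pairs of the family. For 103 adjacent Vmn2r pairs it was 0.54, 0.18 and 0.46, against 0.58, 0.23 and 0.48. For 29 adjacent Tas2r pairs it was 0.76, 0.99 and 1.42, against 1.04, 0.90 and 1.73. Spearman's rho between neighbours was 0.12, 0.07 and -0.10 for Vmn1r, 0.01, 0.34 and 0.21 for Vmn2r, and -0.30, -0.01 and 0.39 for Tas2r genes. Pairs with identical ratios were left out.

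Some receptor genes cannot be told apart in this table. In 7 sets of Vmn1r genes, with 19 genes in all, the members had the same ratios in all 3 cell types to 9 decimals. All 7 sets come from the run of Vmn1r91 to Vmn1r183, and in 6 of them the upstream windows were the same base for base. The largest set was Vmn1r107, Vmn1r130, Vmn1r137, Vmn1r155 and Vmn1r165, with ratios of 0.61 (endoderm), 1.37 (hepatocytes) and 0.88 (beta cells). Its genes have either of 2 windows, shown here with the differing bases in capitals to show how close the copies are. They lie at chr7:20668668-20668967 (Vmn1r107) and chr7:21511530-21511829 (Vmn1r130), both on the plus strand of GRCm38.p6.
Vmn1r107: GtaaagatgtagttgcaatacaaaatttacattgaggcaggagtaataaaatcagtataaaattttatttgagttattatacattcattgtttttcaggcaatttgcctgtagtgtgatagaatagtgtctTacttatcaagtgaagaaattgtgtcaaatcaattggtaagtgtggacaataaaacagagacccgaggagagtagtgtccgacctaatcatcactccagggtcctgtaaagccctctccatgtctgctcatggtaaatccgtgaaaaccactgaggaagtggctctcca
Vmn1r130: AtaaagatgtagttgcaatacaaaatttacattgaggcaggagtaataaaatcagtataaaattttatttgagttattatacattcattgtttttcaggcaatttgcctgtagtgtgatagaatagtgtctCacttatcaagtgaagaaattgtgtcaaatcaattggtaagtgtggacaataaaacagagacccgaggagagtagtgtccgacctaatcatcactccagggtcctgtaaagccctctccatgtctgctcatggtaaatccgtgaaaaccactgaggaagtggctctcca
Counted from the 5′ end of the window, the differences from Vmn1r107 to Vmn1r130 are G1A and T132C. A second set, Vmn1r111, Vmn1r131, Vmn1r138 and Vmn1r166, had ratios of 0.36, 1.12 and 0.54.

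The reverse did not hold, since identical windows also went with different ratios. Of 16 sets of members with 1 window, 7 had the same ratios throughout and 9 did not. Vmn1r93, Vmn1r114 and Vmn1r126 share a window, and their ratios ran from 0.36 to 2.67 in endoderm, 0.95 to 1.54 in hepatocytes and 0.15 to 0.34 in beta cells. Vmn1r123 and Vmn1r160 ran from 0.36 to 1.74 in endoderm. Vmn2r34 and Vmn2r45, also with 1 window, had 1.60 and 2.50 in endoderm, 0.87 and 1.01 in hepatocytes, and 0.73 and 0.90 in beta cells. How reads that match several copies were placed is not stated in the labels or files, so ratios of near-identical receptors are uncertain. Genes with the same 3 ratios made up 10.0% of Vmn1r genes and 1.80% of all genes, when genes outside these families are counted too.

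Olfactory receptors, the other large single-exon family, had shares on the same side of the background. Of 1125 such genes, 50.0% were higher in hepatocytes than in endoderm and 46.8% higher in beta cells, against 58.2% and 40.6% of single-exon members. Trace amine-associated and formyl peptide receptors of chemosensory neurons numbered 18, of which 7 were higher and 2 lower in hepatocytes, and 8 higher and 3 lower in beta cells. All genes gave 12.8% and 13.3% in hepatocytes, and 14.1% and 15.1% in beta cells. Other class C receptors, the relatives of Vmn2r and Tas1r, were higher at 2 of 19 (10.53%) and lower at 1 (5.26%) in hepatocytes, near or below the shares of all genes, with the GABA receptor subunit Gabbr1 (1.22, 2.71 and 0.48) and Gprc6a (0.43, 1.09 and 0.96) as the higher genes. Class C medians were 1.16 (endoderm), 1.06 (hepatocytes) and 0.96 (beta cells).

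Genes that act downstream of the receptors were described from lists of vomeronasal and taste signaling, without a test of the difference from the receptors. In hepatocytes against endoderm, 3 of 19 genes of vomeronasal signaling were higher and 0 lower (median 0.32), and 3 were higher and 3 lower in beta cells (median -0.05). A count of 3 is 15.8% of the list, near the 12.8% and 14.1% of all genes that were higher. Of all genes, 13.3% were lower in hepatocytes and 15.1% in beta cells. Trpc2, the transduction channel of vomeronasal neurons, had 1.40, 0.72 and 0.77, and Gnao1, the partner of Vmn2r receptors, had 1.18, 1.39 and 0.47. Gnai2, the partner of Vmn1r receptors and broadly expressed, had 0.54, 0.43 and 0.32. The class I-like genes H2-M10.1 to H2-M10.6, which accompany Vmn2r receptors in vomeronasal neurons, had endoderm ratios from 0.54 to 2.46.

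In hepatocytes against endoderm, 2 of 19 genes of taste signaling were higher and 3 lower (median 0.18), and 3 higher and 4 lower in beta cells (median 0.21). These are 10.53% and 15.8%, then 15.8% and 21.1%, against 12.8% and 13.3%, then 14.1% and 15.1% of all genes. Gnat3, the taste G protein subunit gustducin, had 0.43, 0.64 and 0.71, and the cation channel Trpm5 had 1.22, 0.84 and 0.64. Plcb2, the phospholipase of taste and vomeronasal cells, was high in each cell type with 3.46, 3.09 and 3.07. Calhm1, a subunit of the channel that releases ATP from taste cells, had 1.59, 1.90 and 0.19. Car4, a carbonic anhydrase of sour-sensing cells, had 0.50, 2.44 and 3.63. None of the genes on these lists was in the lowest 10% of the endoderm column, where 36.1% of single-exon members and 34.7% of olfactory receptors were.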

How the data were processed

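The deposited table holds 1 ratio of H3K27me3 ChIP to input per gene and cell type; per the file headers, the 3 columns were quantile-normalized. Bowtie2 2.1.0, bedtools and build mm9 are named in the submitters' processing notes. Which region was measured per gene, any added constant and how libraries were pooled: not given in the sources used here. Depth is unknown, and the H3K9me3 libraries were not analysed here.

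Comparisons used log2(ratio + 0.0711), with the median ratio divided by 10 as pseudocount. It understates differences of low genes. A log2 difference of 1 or more counted as higher or lower. With 1 pooled value per cell type no test was run. The calculation was tested on simulated data. Changes were planted only at genes with an endoderm ratio above the median of all genes, so recovery at receptors low in endoderm was not tested. Members and lists were chosen with earlier results of these data known. Named vomeronasal genes are the 3 highest and 3 lowest differences of each comparison and the 3 highest ratios of each cell type, every taste receptor and list gene could be named, and runs are those with the 3 highest or lowest median differences of their family. The spacing that defines a run was set after seeing the data. Of the listed names, Calhm3 was not found. Symbols matched RefSeq (GRCm38.p6) for 366 members and a synonym for 1. That assembly served for gene order and upstream windows. Python 3.11.15, pandas 2.3.3, scipy 1.17.1 and matplotlib 3.10.9 were used.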

Additional observations from a re-analysis of the deposited data

How the results depend on the processing

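No paired analysis was possible because the table holds 1 pooled value per cell type, which leaves no replicate to omit. The counts of single-exon and multi-exon members past the threshold, and the gap between their medians, were recomputed under alternatives. Of 90 such values, 60 stayed within 1.5 times the count or within an interval of the median taken across genes, and 30 moved. Genes are not replicates, so this tally is a description and gives no replicate error. With identical ratios counted once, and with a pseudocount 10 times smaller, no count moved by more than 1.5 times.

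With a pseudocount 10 times larger, single-exon genes were higher at 50 and lower at 13 in hepatocytes against endoderm, 61 and 23 in beta cells against endoderm, and 33 and 30 in hepatocytes against beta cells. Multi-exon genes were then higher and lower at 1 and 1, 3 and 1, and 0 and 1. By rank percentiles with a threshold of 25 points, multi-exon genes were higher at 17 and lower at 11 in hepatocytes against endoderm, higher at 23 in beta cells against endoderm, and higher at 10 and lower at 5 between the adult cell types. Among members above the median level (129 of 244 single-exon, 113 of 124 multi-exon), single-exon genes were higher at 63 in hepatocytes and at 65 in beta cells against endoderm, lower at 22 in beta cells, and higher at 21 and lower at 34 in hepatocytes against beta cells, where the unfiltered counts were 85 and 43. With columns divided by their most frequent value, single-exon genes were lower at 12 in hepatocytes, and multi-exon genes were higher at 21 and lower at 2 in hepatocytes, and higher at 32 and lower at 5 in beta cells, each against endoderm. A larger pseudocount shrinks the log2 differences by construction, and a filter can only lower a count. That does not fix the turn from 85 and 43 to 21 and 34, and the cause of this and of the other changes was not tested. Of these alternatives, shares of all genes are given only for columns divided by their most frequent value. Against endoderm they were 22.1% higher and 8.03% lower in hepatocytes, and 24.0% and 9.85% in beta cells. Whether members exceeded the background at the other settings is not known.

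The endoderm gap of single-exon below multi-exon medians (-1.20) was -0.63 with the larger pseudocount, -0.85 by the mean and -0.51 among members above the median level. That filter moved the gap to 0.36 in hepatocytes (from 0.22) and to 0.71 in beta cells (from -0.13). It keeps a larger part of the multi-exon than of the single-exon genes, and drops those of low mean level, so it raises the single-exon median by construction. The beta cell gap stayed below 0, from -0.32 to -0.08, under the other alternatives run.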
